A study of Homo sapiens with 10 samples.

Results

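The clustered protocadherins were examined in the human salivary gland squamous cell carcinoma line A253 by RNA sequencing. The members were all genes of the deposited table whose symbol belongs to the alpha, beta or gamma protocadherin cluster, which gave 54 of 58735 genes, with 16 in the alpha cluster, 16 in the beta cluster and 22 in the gamma cluster. There were 3 groups of 2 libraries each, all grown in DMEM with fetal bovine serum. The control cells carried a guide RNA against dTomato, a sequence absent from the human genome, and are labelled sgRNA tomato. The clones Cl1 and Cl10, labelled DUSP1 KO, were single-cell clones, in which a pair of guide RNAs in the flanking introns had removed exon 2 of DUSP1, the deletion being heterozygous. Control and clones were all transduced with guide RNA and Cas9 lentiviruses. Each clone descends from a single cell, and the sources used here do not say whether the control cells were a pool or a clone. A change in a clone therefore cannot be told apart from what that founding cell already carried, and the 2 libraries of a clone measure the spread within it, not the spread between clones. The comparisons of each clone with the control, and of Cl10 with Cl1, ask which isoforms differ between cells of separate clonal origin.

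Clustered protocadherins are cell surface adhesion proteins of the cadherin superfamily, best known from neurons, where each cell uses a small random set of isoforms as a molecular label for recognising itself. Each alpha and gamma isoform has its own promoter and a large variable first exon that encodes the extracellular cadherin repeats, the membrane span and a short cytoplasmic stretch, and this exon is spliced to constant exons shared by the whole cluster. Beta isoforms are encoded by separate genes without constant exons. Choice of promoter depends on DNA methylation and on looping between promoters and distant enhancers by CTCF and cohesin, and is thought to be kept through cell division once made. The C-type isoforms at the end of the alpha and gamma clusters follow other rules and are used by many cells at once.

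All 54 members lie on the plus strand of chromosome 5 of hg38, in GENCODE v44. The alpha cluster begins with PCDHA1 at base 140786136 and its constant exons end at base 141012347. The beta cluster runs from PCDHB1 at base 141051374 to the end of PCDHB15 at base 141249365. The gamma cluster begins with PCDHGA1 at base 141330514 and ends with its constant exons at base 141512977. In this annotation an alpha isoform shared at least 2869 exon bases with other genes on the same strand, leaving aside the pseudogene PCDHA14, and a gamma isoform at least 2177. The counts were made per gene with HTSeq, and the rule for reads in shared exons is not given in the sources used here. Levels per kilobase below therefore divide by the exon bases of an isoform that no other gene on its strand shares.

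Promoter sequences are shown for the 6 isoforms with the largest differences in a clone against the control among those that passed the test and have a promoter in the RefSeq table, since the promoter is the part of these genes that is chosen. They come from RefSeq on GRCh38.p14, plus strand, and each gives the 250 bases before the start of the gene, with CGCT in capitals, the core of the sequence element that clustered protocadherin promoters have in common. PCDHGA12, whose difference in Cl10 was larger than that of PCDHA2, has no entry there. The windows are PCDHA2 at chr5:140794602-140794851, PCDHA12 at chr5:140875058-140875307, PCDHGA3 at chr5:141343579-141343828, PCDHGA5 at chr5:141363912-141364161, PCDHGA6 at chr5:141373641-141373890 and PCDHGB4 at chr5:141387448-141387697.
PCDHA2: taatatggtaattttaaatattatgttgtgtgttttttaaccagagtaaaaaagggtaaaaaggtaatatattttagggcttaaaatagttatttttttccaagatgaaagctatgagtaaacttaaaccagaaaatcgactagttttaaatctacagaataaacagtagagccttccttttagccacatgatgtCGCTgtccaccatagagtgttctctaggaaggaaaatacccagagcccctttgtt
PCDHA12: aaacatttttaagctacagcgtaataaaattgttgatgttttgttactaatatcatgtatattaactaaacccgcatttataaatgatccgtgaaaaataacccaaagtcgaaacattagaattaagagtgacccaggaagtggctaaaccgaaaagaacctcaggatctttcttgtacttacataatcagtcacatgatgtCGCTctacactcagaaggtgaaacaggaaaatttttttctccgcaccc
PCDHGA3: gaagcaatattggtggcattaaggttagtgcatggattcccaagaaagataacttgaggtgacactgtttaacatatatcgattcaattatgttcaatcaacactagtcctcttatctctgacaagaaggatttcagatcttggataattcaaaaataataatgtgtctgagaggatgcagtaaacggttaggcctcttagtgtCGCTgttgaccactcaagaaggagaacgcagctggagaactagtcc
PCDHGA5: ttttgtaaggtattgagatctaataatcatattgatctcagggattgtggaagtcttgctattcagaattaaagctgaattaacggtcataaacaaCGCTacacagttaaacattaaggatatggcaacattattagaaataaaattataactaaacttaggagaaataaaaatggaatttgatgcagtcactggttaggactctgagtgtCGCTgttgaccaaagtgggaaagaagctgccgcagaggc
PCDHGA6: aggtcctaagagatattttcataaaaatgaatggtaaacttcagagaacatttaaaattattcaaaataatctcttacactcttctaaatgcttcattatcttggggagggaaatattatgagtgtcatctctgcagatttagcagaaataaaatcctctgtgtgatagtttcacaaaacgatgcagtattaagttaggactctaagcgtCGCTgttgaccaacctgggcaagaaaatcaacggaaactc
PCDHGB4: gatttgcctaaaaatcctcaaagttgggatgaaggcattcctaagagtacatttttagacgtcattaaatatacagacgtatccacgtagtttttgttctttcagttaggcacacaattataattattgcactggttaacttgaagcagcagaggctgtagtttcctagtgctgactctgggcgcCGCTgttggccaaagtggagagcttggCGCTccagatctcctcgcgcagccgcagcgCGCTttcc
The last CGCT lay 55 bases before the start in PCDHA2, 48 in PCDHA12, 46 in PCDHGA3, 39 in PCDHGA5 and 40 in PCDHGA6. PCDHGB4 held 3 copies and PCDHGA5 held 2. These isoforms include some that were higher and some that were lower in the clones, and all 6 sequences hold CGCT. Only this core was matched, not the whole sequence element.

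RefSeq promoter windows of 300 bases, which add 50 bases after the start, were matched for 47 of the 54 members. CGCT on the strand of the gene was present in 46 of 47 windows (97.9%), against 53.5% of the 27305 windows of all genes, and counting either strand gave 68.8% of all windows. The exception was PCDHA9. PCDHB8 matched in the full window but held 0 copies before the start. The longer form GGCGCT, which contains CGCT, was found on the strand of the gene in 13 of 14 beta windows (92.9%), in 3 of 20 gamma windows (15%) and in 0 of 13 alpha windows, against 12.4% of all windows. On either strand it was in 13 beta, 8 gamma and 1 alpha windows, against 21.3% of all windows. These matches describe letters in a window and say nothing about binding.

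The libraries held 47016495 to 70986593 counts. DUSP1, the targeted phosphatase of MAP kinases, had 880 and 591 counts in the control libraries, 356 and 302 in Cl1 and 504 and 347 in Cl10, and was lower by 1.07 on the log2 scale in Cl1 (edgeR adjusted p = 0.00029) and by 0.59 in Cl10 (edgeR adjusted p = 0.011). The deletion covers exon 2 on a heterozygous basis, so a count over the whole gene is only a partial check. By western blot, the paper found no DUSP1 protein in either clone. The 6 squamous markers summed to 604671 to 715675 normalised counts per library. The 3 leukocyte markers summed to 4.23 to 20.5, the 2 endothelial markers to 2.34 to 42.2 and the 5 fibroblast markers to 1043 to 1827, nearly all from COL1A1, with LUM at 0. The 5 neuron markers, of interest because protocadherins are abundant in neurons, summed to 476 to 1072, with STMN2 at 0 in every library. Of these, SNAP25 and MAP2 were lower in Cl10 than in the control (log2 fold changes of -1.52 and -1.40), SNAP25 also in Cl1 (-2.76). The endothelial cadherin CDH5 was called higher in Cl10, with 7 and 5 counts in the control, 8 and 2 in Cl1 and 41 and 12 in Cl10, at 2.28 against the control (edgeR adjusted p = 0.023) and 2.49 against Cl1 (edgeR adjusted p = 0.0059), while PECAM1 had at most 2 counts in any library. COL1A1 was lower in Cl10 than in the control by 0.67 on the log2 scale (edgeR adjusted p = 0.0019). Between the clones SNAP25 was called higher (1.24) and MAP2 lower (-1.15) in Cl10. Their part in the results below was not tested. Normalised counts are counts scaled by TMM library factors to a common depth, and because the RNA is bulk, fewer expressing cells and less RNA per cell cannot be told apart.

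The control libraries stood apart from each other in these clusters. Among members with at least 60 counts over the 6 libraries, control replicate 1 was higher than control replicate 2 by a median of 1.44-fold in the gamma cluster (18 of 20 isoforms), 1.42-fold in the alpha cluster (9 of 12) and 1.15-fold in the beta cluster (7 of 11). Over all genes the median was 0.999-fold, a value that the scaling holds near 1. Single genes outside the clusters also differed between the control libraries, in both directions. TET3 was at 4458 and 2860 normalised counts in control replicates 1 and 2, and NDUFA2 at 2019 and 2685. The gap is therefore not shown to be particular to these clusters. In Cl1 the gamma median was 1.00-fold and in Cl10 it was 0.871-fold. Whether this gap came from the cells or from the libraries was not tested, so values without each control library are given wherever they change a call.

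Which isoforms were used was first described by counts. With at least 10 counts required in both libraries of a group, 37 isoforms were detected in the control, 36 in Cl1 and 36 in Cl10. The alpha cluster gave 6 isoforms in the control, 9 in Cl1 and 10 in Cl10. The beta cluster gave the same 11 isoforms in all 3 groups. The gamma cluster gave 20 in the control, 16 in Cl1 and 15 in Cl10. The limit was set on raw counts, without scaling for the differing library totals.

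A shared core of 31 isoforms was detected in all 3 groups. In the alpha cluster the core was PCDHA1, PCDHA8, PCDHA9, PCDHA10 and PCDHA11. In the beta cluster it was PCDHB3 and all of PCDHB7 to PCDHB16. In the gamma cluster it comprised PCDHGA1, PCDHGA4 to PCDHGA7, PCDHGA9 to PCDHGA11, PCDHGB1 to PCDHGB3, PCDHGB7 and the C-type isoforms PCDHGC3, PCDHGC4 and PCDHGC5.

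A further 12 isoforms reached 10 counts in both libraries of only 1 or 2 groups. PCDHA2, PCDHA3 and PCDHA6 did so in Cl10 only, PCDHA7 in Cl1 only, and PCDHA4 and PCDHA12 in both clones but not in the control. PCDHGA3, PCDHGA8, PCDHGA12 and PCDHGB4 did so in the control only. PCDHGB6 and PCDHAC1 did so in the control and Cl1. PCDHGA8 missed the limit in the clones with 9 counts in Cl1 replicate 2 and 9 in Cl10 replicate 2. After scaling these are 10.5 and 10.8 normalised counts, so its absence from the clone lists reflects depth. Most of these isoforms were near the limit: their counts ran from 1 to 52 over all libraries, and PCDHA3, for example, had 16 and 1 counts in the control, 11 and 8 in Cl1 and 25 and 11 in Cl10. Presence by this limit is thus a description of low counts, and the tests below decide which differences exceeded the spread.

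The other 11 isoforms did not reach 10 counts in both libraries of any group. The pseudogene PCDHA14 had 0 counts in every library, and PCDHB1 had 1 count in a single control library. PCDHA5, PCDHA13, PCDHAC2, PCDHB2, PCDHB4, PCDHB5, PCDHB6, PCDHGA2 and PCDHGB5 ranged from 0 to 20. At this depth a count of 0 allows up to 3 counts in a library, so these isoforms were not detectable above that limit in the libraries at 0, which does not show that they are absent. This floor covers counting error only.

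**Figure D1:**
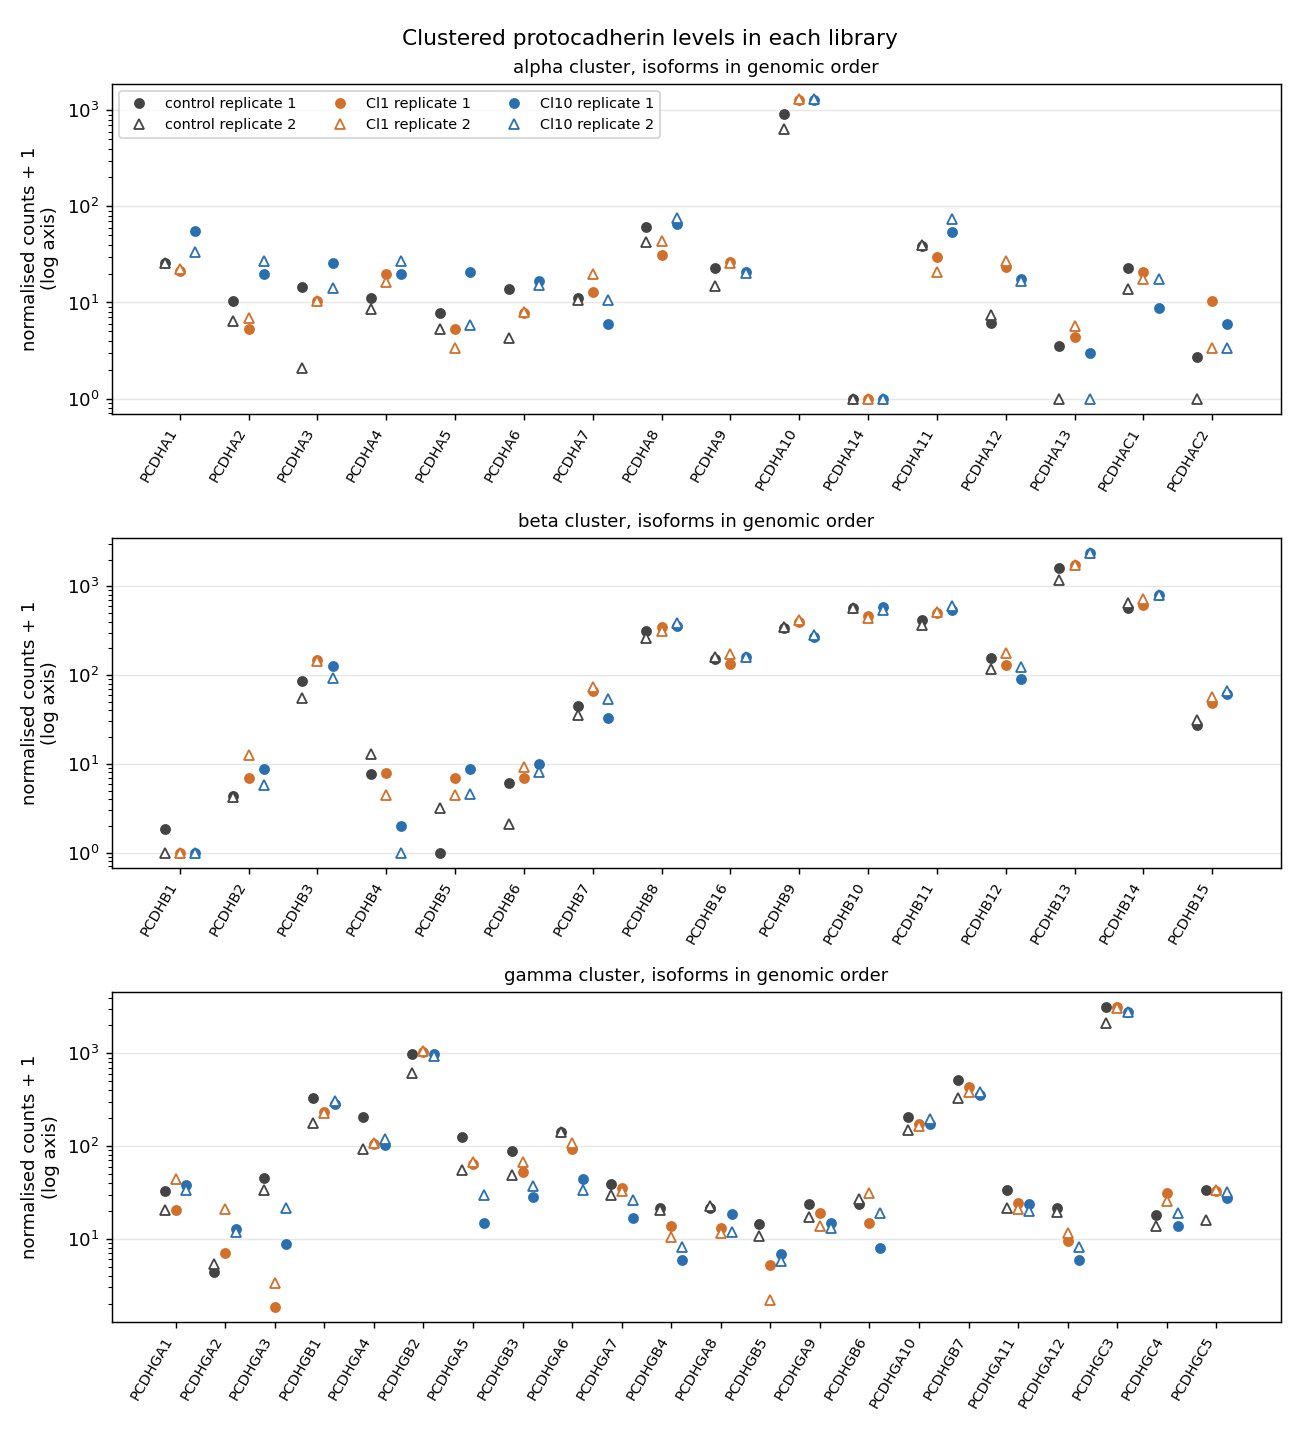
Normalised counts plus 1 (log axis) of the 54 clustered protocadherins in each of the 6 libraries, with isoforms in genomic order in 3 panels for the alpha, beta and gamma clusters; filled circles are replicate 1 and open triangles replicate 2 of the control, Cl1 and Cl10. PCDHA10, PCDHB13 and PCDHGC3 stand above the other isoforms of their clusters in all groups, and the control triangles lie below the control circles for 18 of the 20 gamma isoforms with at least 60 counts.

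The cells drew most of their clustered protocadherin RNA from a few isoforms, and these were the same in every group. In the alpha cluster PCDHA10 led, with 1075 and 596 counts in the control, 1501 and 1108 in Cl1 and 1314 and 1106 in Cl10. Per kilobase it stood at 74.9 ± 18.3 normalised counts in the control, 125 ± 1.10 in Cl1 and 126 ± 2.21 in Cl10 (SD, n = 2). Its unshared sequence in this annotation is long, at 10355 bases, so its level per kilobase is a cautious one. PCDHA8 came next in every group, at 19.5 ± 4.90, 13.8 ± 3.32 and 26.6 ± 3.11 normalised counts per kilobase in the control, Cl1 and Cl10. Next was PCDHA11 in the control (11.4 ± 0.135) and in Cl10 (18.8 ± 4.19), and PCDHA12 in Cl1 (9.27 ± 0.975). PCDHA11 and PCDHA12 in Cl1 did not differ beyond the spread, since PCDHA11 reached 8.64 and PCDHA12 began at 8.58.

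In the beta cluster PCDHB13 led, with 1921 and 1102 counts in the control, 2057 and 1481 in Cl1 and 2432 and 1966 in Cl10. It stood at 278 ± 61.5, 345 ± 3.03 and 468 ± 5.19 normalised counts per kilobase. PCDHB10 and PCDHB14 followed, and they changed places: PCDHB10 was at 173 ± 0.893 and PCDHB14 at 144 ± 12.7 in the control, while PCDHB14 was ahead in Cl1 (157 ± 15.2 against 137 ± 5.60) and in Cl10 (188 ± 0.607 against 171 ± 8.41). In all 3 groups the library values of PCDHB10 and PCDHB14 did not overlap.

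In the gamma cluster the C-type isoform PCDHGC3 led, with 3702 and 1971 counts in the control, 3721 and 2641 in Cl1 and 2818 and 2355 in Cl10. It stood at 807 ± 220, 964 ± 18.2 and 859 ± 10.7 normalised counts per kilobase. PCDHGB2 was second in every group (303 ± 97.5, 393 ± 7.21 and 365 ± 8.89) and PCDHGB7 came after it (152 ± 48.0, 145 ± 12.5 and 132 ± 4.95). Within each group the library values of these 3 isoforms did not overlap.

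The other C-type isoforms were far lower. PCDHGC5 had 39 and 14 counts in the control, 37 and 28 in Cl1 and 27 and 26 in Cl10, and PCDHGC4 had 20 and 12, 35 and 21, and 13 and 15. PCDHAC1 had 26 and 12 counts in the control, 23 and 14 in Cl1 and 8 and 14 in Cl10. PCDHAC2 had 2 and 0, 11 and 2, and 5 and 2. Of the 4 C-type isoforms tested, 0 were called in any comparison by edgeR or by DESeq2, and at an unadjusted p under 0.05 only PCDHGC3 passed, between the clones. Of all genes tested, edgeR called 7.54% in Cl1, 13.4% in Cl10 and 10.8% between the clones. With 4 isoforms, 0 calls do not set the C-type isoforms apart from those shares. PCDHAC2 was too low to be tested with edgeR.

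Shares of each cluster, computed per kilobase, showed how far the leading isoform dominated. PCDHA10 held 54.5% ± 0.616 of the alpha cluster in the control, 66.3% ± 0.599 in Cl1 and 55.8% ± 0.265 in Cl10 (SD, n = 2). PCDHB13 held 27.4% ± 3.84, 29.9% ± 0.878 and 35.6% ± 0.605 of the beta cluster. PCDHGC3 held 50.1% ± 1.49, 53.7% ± 0.522 and 52.4% ± 0.380 of the gamma cluster. The library values of PCDHA10 in Cl1 lay above those of both other groups, and those of PCDHB13 in Cl10 did too.

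**Figure D2:**
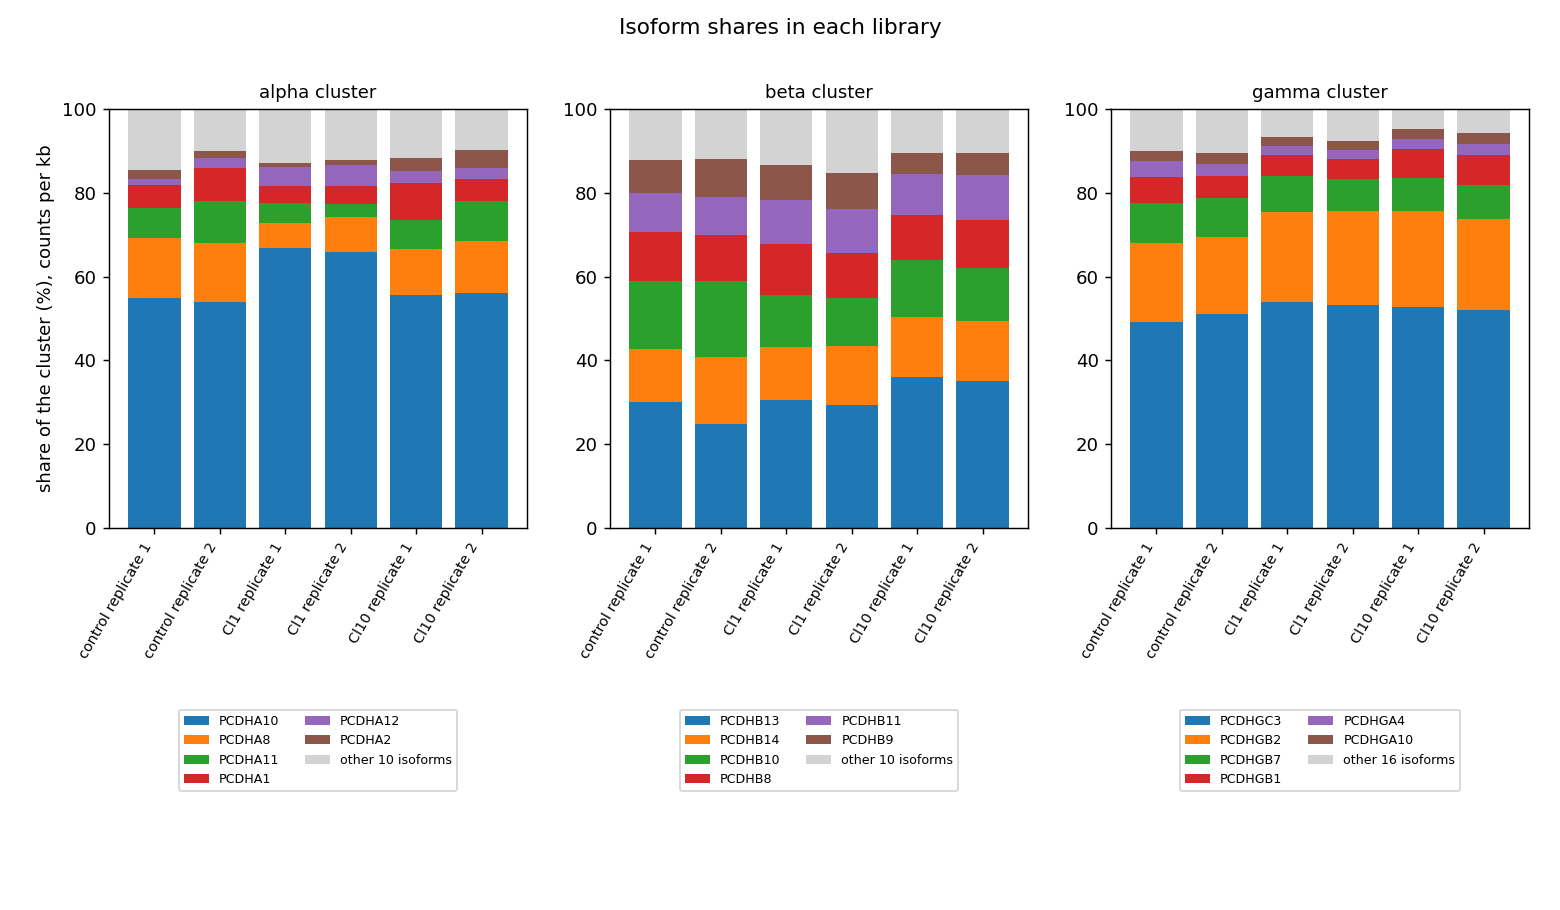
Share of each cluster (%, counts per kilobase of unshared exon) held by its 6 leading isoforms and by the others together, as stacked bars for each of the 6 libraries in 3 panels for the alpha, beta and gamma clusters. PCDHA10 takes 54.5% of the alpha cluster in the control and 66.3% in Cl1, PCDHB13 takes 35.6% of the beta cluster in Cl10, and PCDHGC3 takes between 50.1% and 53.7% of the gamma cluster as group means.

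The effective number of isoforms (the inverse Simpson index, which equals the number of isoforms if all were used equally) summarised the same shares. It was 3.01 ± 0.021 for the alpha cluster in the control, 2.21 ± 0.028 in Cl1 and 2.93 ± 0.045 in Cl10. For the beta cluster it was 6.31 ± 0.370, 6.35 ± 0.208 and 5.20 ± 0.098, and for the gamma cluster 3.32 ± 0.130, 2.89 ± 0.033 and 2.97 ± 0.066. The alpha value of Cl1, the beta value of Cl10 and the gamma value of the control thus lay apart from the other groups by library, with 2 libraries a group and no test. By this measure the clones were about level with the control or lower, and neither clone fell to 1 in any cluster. From counts without length the alpha value was nearer to 1, at 1.58 in the control, 1.36 in Cl1 and 1.55 in Cl10. Bulk RNA does not show how many isoforms a single cell used.

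The total output of each cluster was summed over its isoforms. The alpha cluster summed to 1148 and 811 normalised counts in the control, 1497 and 1513 in Cl1 and 1615 and 1652 in Cl10. PCDHA10 alone held 79.1% of the alpha counts in the control, 85.7% in Cl1 and 80.0% in Cl10 (group means). The alpha sum is therefore mostly a measure of that isoform. The beta cluster summed to 4314 and 3790, 4630 and 4783, and 5426 and 5463. For these clusters all clone libraries were above both control libraries. The gamma cluster summed to 6035 and 3966 in the control, 5564 and 5508 in Cl1 and 4940 and 5079 in Cl10, so that both clones lay between the control libraries. The log2 ratio to the control was 0.62 in Cl1 and 0.74 in Cl10 for alpha, and 0.22 and 0.43 for beta. Control replicate 1 had much weight here: without it the alpha ratios were 0.89 and 1.01, and the gamma ratios went from 0.15 and 0.0025 to 0.48 and 0.34.

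Cl1 was then compared with the control isoform by isoform. Of the 54 members 41 passed the filter on low counts, and 3 of them were called (7.32%), while 7.54% of all 20153 genes tested were called. A call required an adjusted p below 0.05 together with a log2 fold change beyond 1 in either direction. The share of members called was near that of all genes. The called isoforms were PCDHA12 and PCDHB3, which were higher (4.27% of all genes were called higher), and PCDHGA3, which was lower (3.27% of all genes), so that each cluster gave 1. DESeq2 called PCDHB3 and PCDHGA3. With at least 10 counts required in every library only PCDHB3 was called, since PCDHA12 and PCDHGA3 had fewer in the lower group. On adjusted p alone PCDHA10 was added, at a log2 fold change of 0.73 ± 0.15 (SE, edgeR adjusted p = 0.0041), which made 4, where 25.1% of all genes passed. The median log2 fold change was 0.46 over the 9 alpha isoforms tested, 0.24 over 11 beta isoforms and -0.23 over 21 gamma isoforms, where all genes had a median of -0.013. In the gamma cluster 16 of 21 isoforms were below 0 and 1 was called.

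PCDHGA3, a gamma A isoform, nearly disappeared from Cl1. It had 52 and 30 counts in the control libraries and 1 and 2 in the Cl1 libraries, and 8 and 17 in Cl10. The control and Cl1 libraries were thus far apart, and those of Cl10 lay between them. The fitted log2 fold change of Cl1 against the control was -4.58 ± 0.62 (edgeR adjusted p = 0.00021). From the summed counts, 82 in the control against 3 in Cl1, the ratio after scaling was 26.2-fold, with a 95% counting interval of 8.66 to 130. The call held without each of the 4 libraries in turn.

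PCDHA12, an alpha isoform, had 6 and 6 counts in the control, 26 and 22 in Cl1 and 17 and 13 in Cl10. All 4 clone libraries were above both control libraries, at low counts. In Cl1 the log2 fold change was 2.04 ± 0.50 (edgeR adjusted p = 0.0096). Without Cl1 replicate 1 it was 2.15 (edgeR adjusted p = 0.053) and without Cl1 replicate 2 it was 1.95 (edgeR adjusted p = 0.067), so the call was lost without either.

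PCDHB3, a beta isoform, had 99 and 51 counts in the control, 171 and 122 in Cl1 and 129 and 76 in Cl10. After scaling these were 83.7 and 54.8, 146 and 143, and 127 and 90.9 normalised counts, so the Cl1 libraries were above all others. The log2 fold change in Cl1 was 1.05 ± 0.24 (edgeR adjusted p = 0.0075), just past the size threshold. Without control replicate 2 it was 0.79 (edgeR adjusted p = 0.014), which is below that threshold. It also fell below it with scaling by library size only (0.98, edgeR adjusted p = 0.014) and with the median of the neighbouring genes subtracted (0.89, edgeR adjusted p = 0.018). In both of these settings PCDHGB5, a gamma B isoform with few counts, was called lower, at -2.03 and -2.11 (edgeR adjusted p = 0.048 and 0.040). Without control replicate 1, in turn, PCDHA10 was also called, at 1.01, together with PCDHB7, at 1.00. With 1 control library left, that fit does not measure the spread between control libraries.

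**Figure D3:**
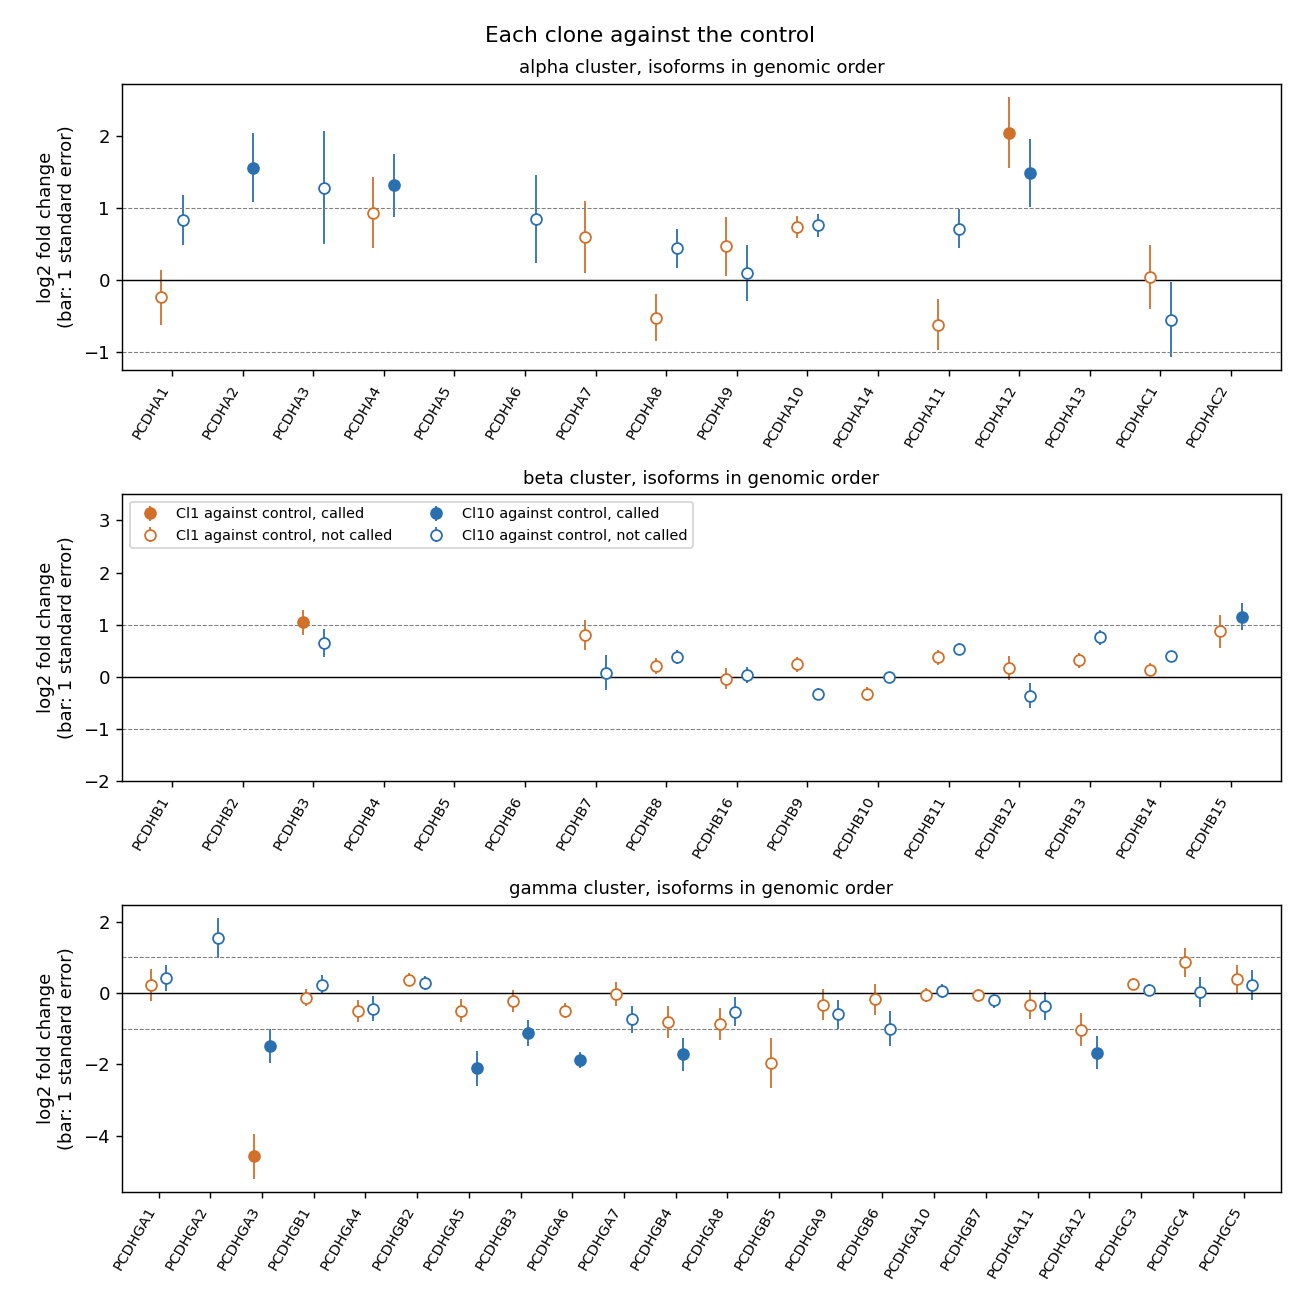
Log2 fold changes against the control (vertical axis; bars are 1 standard error) of the isoforms tested in Cl1 (orange) and Cl10 (blue), in genomic order for the 3 clusters, with filled points for calls and dashed lines at -1 and 1; both clones share the same control libraries. PCDHGA3 in Cl1 reaches -4.58, and the 6 gamma isoforms called in Cl10 all lie below -1.

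Cl10 was compared with the same control libraries. Of 43 members tested 10 were called (23.3%), where 13.4% of all 19875 genes tested were. Higher were PCDHA2, PCDHA4, PCDHA12 and PCDHB15, 4 of 43 (9.30%, against 5.98% of all genes called higher). Lower were PCDHGA3, PCDHGA5, PCDHGA6, PCDHGA12, PCDHGB3 and PCDHGB4, 6 of 43 (against 7.44% of all genes called lower), and all 6 belong to the 21 gamma isoforms tested. The calls in the alpha and beta clusters were thus higher and those in the gamma cluster lower. With at least 10 counts required in every library, 4 were called: PCDHB15, which was higher, and PCDHGA5, PCDHGB3 and PCDHGA6, which were lower. The others had fewer than 10 counts in a library of the lower group. The share of 23.3% thus includes isoforms that passed the filter through the group where they were high. The median log2 fold change was 0.83 over 11 alpha isoforms, 0.38 over 11 beta isoforms and -0.43 over 21 gamma isoforms, where all genes had a median of -0.011. On adjusted p alone 14 members passed, where 42.5% of all genes did, and the added ones were PCDHA10, PCDHB11, PCDHB13 and PCDHB14, all higher.

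The firmest differences in Cl10 were in gamma isoforms. PCDHGA6 had 167 and 130 counts in the control, 109 and 91 in Cl1 and 44 and 27 in Cl10. In normalised counts the control libraries were at 141 and 140, those of Cl1 at 93.1 and 107 and those of Cl10 at 43.2 and 32.3, with no overlap between any groups. In Cl10 the log2 fold change was -1.88 ± 0.22 (edgeR adjusted p = 0.00085). In Cl1 it was -0.50 ± 0.21 (edgeR adjusted p = 0.097).

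PCDHGA5 had 146 and 51 counts in the control, 74 and 56 in Cl1 and 14 and 24 in Cl10. Both Cl10 libraries were below all others, while the control libraries were wide apart. Against the control, Cl10 had a log2 fold change of -2.11 ± 0.50 (edgeR adjusted p = 0.014). In Cl1 it was -0.49 ± 0.33 (edgeR adjusted p = 0.31), and it turned to 0.23 without control replicate 1. PCDHGA5 and PCDHGA6 in Cl10 remained called without each library in turn and also with DESeq2.

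PCDHGB3 had 104 and 44 counts in the control, 61 and 56 in Cl1 and 28 and 30 in Cl10, with the Cl10 libraries lowest. The log2 fold change in Cl10 was -1.11 ± 0.37 (edgeR adjusted p = 0.045). Without control replicate 1 it was -0.59 (edgeR adjusted p = 0.21), and without Cl10 replicate 1 it was -0.92 (edgeR adjusted p = 0.098).

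PCDHGB4 had 24 and 18 counts in the control, 15 and 8 in Cl1 and 5 and 6 in Cl10. PCDHGA12 had 24 and 17, 10 and 9, and 5 and 6. In both genes the normalised counts of the control lay above those of Cl1 and those of Cl1 above those of Cl10. In Cl10 the log2 fold change was -1.71 ± 0.46 for PCDHGB4 (edgeR adjusted p = 0.022) and -1.67 ± 0.47 for PCDHGA12 (edgeR adjusted p = 0.025). PCDHGB4 shares exon sequence with PCDHGA8 in the annotation beyond the constant exons, so its counts also depend on the rule for shared reads.

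These calls rested on few counts. PCDHGB4 was no longer called without control replicate 1 (-1.68, edgeR adjusted p = 0.066), without Cl10 replicate 1 (-1.44, edgeR adjusted p = 0.18) or without Cl10 replicate 2 (-1.98, edgeR adjusted p = 0.066). PCDHGA12 was no longer called without the same libraries, at -1.60, -1.40 and -1.95 (edgeR adjusted p = 0.087, 0.19 and 0.075).

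PCDHGA3, with the counts given above, was also called in Cl10, at -1.47 ± 0.47 (edgeR adjusted p = 0.041). That call was lost without control replicate 1 (-1.23, edgeR adjusted p = 0.053) and without Cl10 replicate 1 (-0.90, edgeR adjusted p = 0.20). Cl10 kept 25 counts of PCDHGA3 against 3 in Cl1, a scaled ratio of 9.10-fold with a 95% counting interval of 2.78 to 47.1. PCDHGA3 did not pass the filter on low counts in the comparison of the clones. Without that filter it was called higher in Cl10 than in Cl1, at 3.11 (edgeR adjusted p = 0.0032), as it was with one edgeR fit over the 6 libraries (3.10, adjusted p = 0.012) and with DESeq2 (3.21, adjusted p = 0.049). Without Cl1 replicate 1 it was at 2.49 (edgeR adjusted p = 0.064) and not called.

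Among the isoforms that were higher in Cl10, PCDHB15 had the most counts. It had 31 and 28 counts in the control, 55 and 48 in Cl1 and 61 and 54 in Cl10, and both clones lay above the control in every library. Against the control, Cl10 had a log2 fold change of 1.15 ± 0.26 (edgeR adjusted p = 0.011) and held without each library. In Cl1 it was 0.87 ± 0.32 (edgeR adjusted p = 0.062).

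PCDHA2 had 11 and 5 counts in the control, 5 and 5 in Cl1 and 19 and 22 in Cl10, and only the Cl10 libraries stood above the rest. The log2 fold change against the control was 1.56 ± 0.47 (edgeR adjusted p = 0.033). It was lost without control replicate 2 (1.25, edgeR adjusted p = 0.10), Cl10 replicate 1 (1.81, edgeR adjusted p = 0.058) or Cl10 replicate 2 (1.31, edgeR adjusted p = 0.21).

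PCDHA4 had 12 and 7 counts in the control, 22 and 13 in Cl1 and 19 and 22 in Cl10, with all clone libraries above the control after scaling. The log2 fold change in Cl10 was 1.31 ± 0.44 (edgeR adjusted p = 0.046). In Cl1 it was 0.93 ± 0.49 (edgeR adjusted p = 0.18). The call in Cl10 was lost without any 1 of the 4 libraries: 1.55 without control replicate 1, 1.12 without control replicate 2, 1.56 without Cl10 replicate 1 and 1.06 without Cl10 replicate 2, with edgeR adjusted p of 0.060, 0.14, 0.090 and 0.30.

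PCDHA12 was at 1.49 ± 0.47 in Cl10 (edgeR adjusted p = 0.039), and this call too was lost without any 1 of the 4 libraries, at 1.30, 1.65, 1.44 and 1.53 without control replicates 1 and 2 and Cl10 replicates 1 and 2 (edgeR adjusted p = 0.19, 0.098, 0.24 and 0.17). Without control replicate 1, 6 members were called in Cl10. PCDHA10 (1.02) and PCDHA3 (3.99) were among them, called there but not with all 4 libraries, and for PCDHA3 the remaining control library held 1 count. With 1 control library left, that fit does not measure the spread between control libraries. Without control replicate 2 there were 7, without Cl10 replicate 1 there were 3 (PCDHB15, PCDHGA5 and PCDHGA6), and without Cl10 replicate 2 there were 6, of which PCDHA1 (1.13, edgeR adjusted p = 0.047) was not called with all 4. DESeq2 called 2 members in Cl10, PCDHGA5 and PCDHGA6, and a filter of at least 10 counts in every library left 4.

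PCDHB4, a beta isoform, did not pass the filter on low counts. Its counts were 8 and 11 in the control, 8 and 3 in Cl1 and 1 and 0 in Cl10. The control held 19 counts against 1 in Cl10, a scaled ratio of 16.7-fold with a 95% counting interval of 2.65 to 693. Without the filter it was called lower, at -3.82 (edgeR adjusted p = 0.014), and DESeq2 gave it no adjusted p. It passed the filter without Cl10 replicate 1 or 2, at -6.18 and -3.06, and was not called (edgeR adjusted p = 0.051 and 0.12). It is named because of these values, which were seen first.

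**Figure D4:**
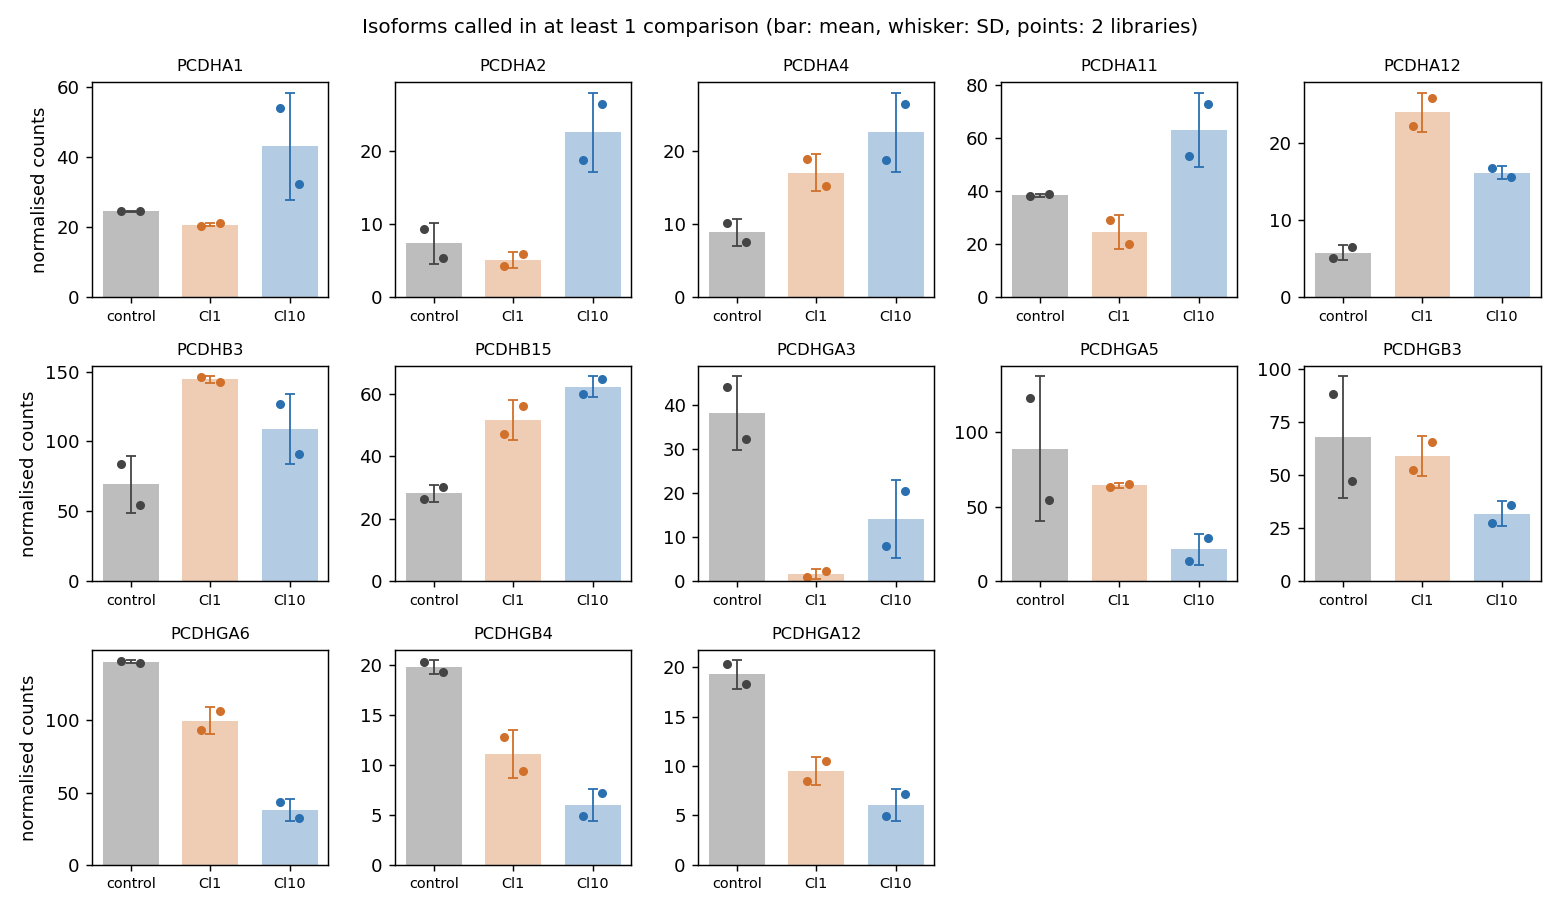
Normalised counts (vertical axis, from 0) of the 13 isoforms called in at least 1 comparison, in 13 panels with the control in grey, Cl1 in orange and Cl10 in blue; bars are means, whiskers SDs and points the 2 libraries. PCDHGA3 falls to 1.60 in Cl1 from 38.1 in the control, PCDHGA6 steps down from 141 to 99.8 to 37.8, and PCDHA2 is high in Cl10 alone, at 22.5.

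The clones were then compared with each other, a comparison in which the control libraries have no part. Of 41 members tested 5 were called (12.2%), where 10.8% of all 19818 genes tested were. PCDHA1, PCDHA2 and PCDHA11 were higher in Cl10 (4.47% of all genes were called higher) and PCDHGA5 and PCDHGA6 lower (6.28% of all genes). With at least 10 counts required in every library 4 were called, all of these but PCDHA2. The share of 12.2% thus includes an isoform that passed the filter through the group where it was high. For the beta cluster 0 of 11 beta isoforms were called by edgeR, or by DESeq2, although 4 of the 11 passed on adjusted p alone and 6 at an unadjusted p under 0.05. On adjusted p alone 13 members passed, where 49.0% of all genes did. The median log2 fold change was 0.67 over 12 alpha isoforms, 0.16 over 11 beta isoforms and -0.15 over 18 gamma isoforms, where all genes had a median of -0.0012.

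Among the isoforms that passed the filter PCDHA2 differed most. It passed through Cl10, with 5 and 5 counts in Cl1 and 19 and 22 in Cl10. Its log2 fold change was 2.14 ± 0.54 (edgeR adjusted p = 0.0049). Without Cl10 replicate 2 it was 1.89 (edgeR adjusted p = 0.060). PCDHA11 had 45 and 36 counts in the control, 34 and 17 in Cl1 and 54 and 61 in Cl10, so that Cl1 was lowest and Cl10 highest in every library after scaling. Its log2 fold change between the clones was 1.33 ± 0.32 (edgeR adjusted p = 0.0044). Against the control it was -0.62 in Cl1 and 0.71 in Cl10, and neither passed (edgeR adjusted p = 0.22 and 0.072).

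PCDHA1 had 29 and 23 counts in the control, 24 and 18 in Cl1 and 55 and 27 in Cl10, with Cl10 highest and its libraries wide apart. Its log2 fold change between the clones was 1.07 ± 0.37 (edgeR adjusted p = 0.028), and 0.64 without Cl10 replicate 1 (edgeR adjusted p = 0.37). DESeq2 did not call it (1.07, adjusted p = 0.14). An antisense gene covers 2719 of its 2726 unshared bases, and had at most 1 count in any library.

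PCDHGA6 had a log2 fold change of -1.38 ± 0.26 between the clones (edgeR adjusted p = 0.00071). PCDHGA5 was at -1.62 ± 0.35 (edgeR adjusted p = 0.0020). Both calls held without each of the 4 libraries. Leaving out a library also added calls between the clones: PCDHGB3 was lower in Cl10 without Cl1 replicate 1 (-1.06, edgeR adjusted p = 0.012) and without Cl10 replicate 2 (-1.08, edgeR adjusted p = 0.033). Without Cl10 replicate 2 PCDHB7 was lower as well (-1.12, edgeR adjusted p = 0.015), and PCDHA5, which had not passed the filter, was higher (2.48, edgeR adjusted p = 0.015).

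The leading isoforms were also set side by side. PCDHA10 had a log2 fold change of 0.02 ± 0.07 (edgeR adjusted p = 0.82) and PCDHGB2 of -0.10 ± 0.08 (edgeR adjusted p = 0.31). PCDHGC3 was lower in Cl10 by 0.16 on the log2 scale (SE 0.058, edgeR adjusted p = 0.034), and PCDHB13 was higher by 0.45 (SE 0.062, edgeR adjusted p = 7.8e-05). Against the control PCDHB13 was at 0.31 ± 0.14 in Cl1 (edgeR adjusted p = 0.12) and at 0.76 ± 0.14 in Cl10 (edgeR adjusted p = 0.0056), and PCDHA10 was at 0.75 ± 0.16 in Cl10 (edgeR adjusted p = 0.0087). PCDHGC3 was at 0.26 ± 0.15 and 0.09 ± 0.17, PCDHGB2 at 0.38 ± 0.18 and 0.27 ± 0.20 and PCDHGB7 at -0.07 ± 0.19 and -0.20 ± 0.21 in Cl1 and Cl10, and none of these passed.

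The other leading isoforms stayed under the size threshold. PCDHB14 was at 0.13 ± 0.14 in Cl1 (edgeR adjusted p = 0.54) and 0.40 ± 0.11 in Cl10 (edgeR adjusted p = 0.022). PCDHB10 was at -0.33 ± 0.13 and -0.0091 ± 0.10, and PCDHA8 at -0.53 ± 0.33 and 0.44 ± 0.27, with no pass. Between the clones PCDHA8 was at 0.97 ± 0.29 (edgeR adjusted p = 0.014), just below the size threshold, and it passed that threshold without Cl1 replicate 2 (1.21) and without Cl10 replicate 1 (1.09). The C-type isoforms PCDHGC4, PCDHGC5 and PCDHAC1 were at 0.86 ± 0.41, 0.39 ± 0.41 and 0.04 ± 0.44 in Cl1 and at 0.02 ± 0.42, 0.23 ± 0.43 and -0.55 ± 0.52 in Cl10, and none passed.

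Genes around the clusters were examined for shifts of the whole region. Among the 50 tested genes nearest to the clusters on chromosome 5, the log2 fold change had a median of 0.16 in Cl1, 0.20 in Cl10 and -0.04 between the clones, with 4, 1 and 5 of them called. Of all genes tested, 7.54%, 13.4% and 10.8% were called in these comparisons. Of 22 listed flanking genes 20 were tested and 0 were called in any comparison by edgeR or DESeq2. At an unadjusted p under 0.05 there were 9 in Cl1, 11 in Cl10 and 10 between the clones. On adjusted p alone 6 were higher and 1 lower in Cl1, where 25.1% of all genes passed. In Cl10 8 were higher and 1 lower, where 42.5% of all genes passed. Between the clones 4 were higher and 5 lower, where 49.0% of all genes passed. TAF7, a subunit of TFIID that lies between the beta and gamma clusters, was at 0.02 in both clones. DIAPH1, a formin downstream of the gamma cluster, was at 0.22 in Cl1 and 0.36 in Cl10 (edgeR adjusted p = 0.22 and 0.016), and HDAC3, a histone deacetylase, at 0.21 and 0.18. With the median of the 50 neighbours subtracted, 6 members were called in Cl10, all of them in the gamma cluster, while PCDHA2 (1.36), PCDHA4 (1.11), PCDHA12 (1.29) and PCDHB15 (0.95) no longer were. The same subtraction ended the call of PCDHB3 in Cl1, as given above.

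Of the 12 cohesin and CTCF genes 0 were called in any comparison by edgeR or DESeq2, and at an unadjusted p under 0.05 there were 1 in Cl1, 7 in Cl10 and 9 between the clones. On adjusted p alone 0 passed in Cl1, where 25.1% of all genes did. In Cl10 7 of 12 were higher, where 42.5% of all genes passed in either direction, and 9 of 12 were higher in Cl10 than in Cl1, where 49.0% of all genes passed. CTCF, which anchors the loops between promoters and enhancers, was at -0.01 in Cl1 (edgeR adjusted p = 0.94) and 0.45 in Cl10 (edgeR adjusted p = 0.0041). RAD21, a subunit of the cohesin ring, was at 0.03 and 0.16, and WIZ, a zinc finger protein, at 0.14 and 0.42 (edgeR adjusted p = 0.39 and 0.0049).

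Of 12 genes of DNA methylation and silencing 0 were called in any comparison by edgeR or DESeq2, and at an unadjusted p under 0.05 there were 4 in Cl1, 7 in Cl10 and 9 between the clones. On adjusted p alone 2 of 12 were higher in Cl1, where 25.1% of all genes passed, and in Cl10 5 were higher and 1 lower, 6 of 12 in all, where 42.5% of all genes passed. TET3 and TET2, which oxidise methylated cytosine, were the 2 in Cl1, at 0.70 (edgeR adjusted p = 0.0092) and 0.63 (edgeR adjusted p = 0.016). In Cl10 UHRF1, which guides maintenance methylation, was at 0.82 (edgeR adjusted p = 0.00053), TET2 at 0.71 (edgeR adjusted p = 0.023) and DNMT1, the maintenance methyltransferase, at 0.51 (edgeR adjusted p = 0.0044). DNMT3A, a de novo methyltransferase, was the 1 that was lower, at -0.30 (edgeR adjusted p = 0.028). These 5 genes were chosen for naming after their values were seen. DNMT3B, another de novo methyltransferase, was at -0.15 and 0.15, SMCHD1, a chromatin protein that keeps these clusters in check, at -0.02 and 0.09, and SETDB1, a histone H3 lysine 9 methyltransferase, at 0.22 and -0.08 in Cl1 and Cl10. None of these values of DNMT3B, SMCHD1 and SETDB1 passed.

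Of 17 genes for cleavage and signalling, PSEN2, a catalytic subunit of gamma-secretase, was higher in Cl1 (355 and 300 counts in the control, 857 and 532 in Cl1, 343 and 264 in Cl10), at 1.13 (edgeR adjusted p = 0.00017). Between the clones it was at -1.05 (edgeR adjusted p = 1.0e-05). CYFIP2, a subunit of the WAVE complex that regulates actin, was lower in Cl10, at -1.02 (edgeR adjusted p = 0.00048). Of 12 protocadherins outside the clusters 5 were tested, and PCDH12, which lies on chromosome 5 outside the clusters, was higher in Cl1 at 1.01 (edgeR adjusted p = 0.013) and at -1.07 between the clones (edgeR adjusted p = 0.0016). It stood at 69.6 ± 22.4 normalised counts in the control, 142 ± 22.5 in Cl1 and 66.7 ± 11.3 in Cl10 (SD, n = 2).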

How the data were processed

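The authors made paired-end poly(A) libraries, mapped the reads with HISAT2 on hg38 and obtained gene counts with HTSeq. The processing notes also name StringTie and DESeq. The deposited counts are raw. The gene annotation, strand setting and rule for shared reads are not given in the sources used here, and the kit differs between sources (Illumina Stranded mRNA Prep or TruSeq RNA). Of the 10 samples in the labels, the 6 of the DUSP1 experiment were analysed, and the SOX2 experiment was not analysed here.

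Library totals were 47016495 to 70986593 counts. Each comparison was fitted on its own 4 libraries with edgeR 4.0.16 in R 4.3.3 (filterByExpr, TMM, estimateDisp, glmQLFit, glmQLFTest, two-sided, Benjamini-Hochberg adjustment over all genes tested). Calls required an adjusted p below 0.05 together with a log2 fold change beyond 1 in either direction. The SE was derived from the unshrunk log2 fold change and the F statistic (size over root F). Fits were checked on simulated counts. Nothing says that replicates came from separate cultures, so p-values measure the spread between these libraries, which may be technical. Intervals and floors cover counting error only. Leaving out a library left 1 in its group, which was assumed to vary like the other group. DESeq2 1.42.0, library size scaling, other filters, a replicate block, a fit over all 6 libraries and correction by the median of 50 neighbouring genes were alternatives, and a correction for GC content and transcript length (splines, 5 degrees of freedom) was added after seeing the data. Exon lengths are from GENCODE v44, and promoters from RefSeq (GRCh38.p14).

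The isoforms named are those called in any comparison, the C-type isoforms and the 3 highest per kilobase in each cluster. The members and lists were chosen with earlier results of these data known.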

Additional observations from a re-analysis of the deposited data

Results flagged for a closer look

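In 5 isoforms the change against the control differed between the clones by the test of Cl10 against Cl1 itself. PCDHA2 (log2 fold change of Cl10 against Cl1 2.14), PCDHA11 (1.33) and PCDHA1 (1.07) were higher in Cl10, and PCDHGA5 (-1.62) and PCDHGA6 (-1.38) were lower. PCDHA2 had 5 counts in each Cl1 library and passed the filter on low counts through Cl10, where it was high. PCDHA1 was not called without Cl10 replicate 1 (0.64), nor with DESeq2 (1.07, adjusted p = 0.14), and PCDHA2 was not called without Cl10 replicate 2 (1.89, edgeR adjusted p = 0.060).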

How the results depend on the processing

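Depth limits most isoforms: only the leading ones had high counts. The main count of members called was 3 in Cl1, 10 in Cl10 and 5 between the clones. With at least 10 counts in every library it was 1 in Cl1 (PCDHB3) and 4 in Cl10 (PCDHB15, PCDHGA5, PCDHGB3 and PCDHGA6). Between the clones it was 4 (PCDHA1, PCDHA11, PCDHGA5 and PCDHGA6). The calls lost were PCDHA12 and PCDHGA3 in both clones, PCDHA2, PCDHA4, PCDHGB4 and PCDHGA12 in Cl10, and PCDHA2 between the clones. Each had a library below 10 counts and was not tested in that setting. With DESeq2 it was 2 in Cl10, and with the median of the neighbouring genes subtracted it was 6 there. On adjusted p alone it was 13 between the clones. Leaving out a library gave 2 to 5 in Cl1, 3 to 7 in Cl10 and 6 to 7 between the clones. Same-numbered replicates did not deviate together (r between -0.068 and 0.010), and a replicate block gave 4, 11 and 5 calls in the 3 comparisons. Leaving out a library moved the log2 ratio of the summed alpha cluster from 0.39 to 0.89 in Cl1 and from 0.51 to 1.01 in Cl10, of the beta cluster from 0.13 to 0.31 and from 0.34 to 0.52, and of the gamma cluster from -0.12 to 0.48 and from -0.27 to 0.34. Between the clones, scaling by library size only gave 0.19 for alpha, 0.29 for beta and -0.069 for gamma. The effective number of isoforms in the control, Cl1 and Cl10 from counts without length was 1.58, 1.36 and 1.55 for alpha, 5.34, 5.14 and 4.14 for beta and 3.17, 2.74 and 2.79 for gamma. As the exponential of the Shannon entropy it was 5.12, 4.17 and 5.15 for alpha, 7.79, 8.14 and 7.04 for beta and 5.71, 4.70 and 4.66 for gamma. The sign turned only in values that were not called. Leaving out a library in turn, the lowest and highest values in Cl1 were -0.27 and 0.49 for PCDHAC1, -0.94 and 0.23 for PCDHGA5, -0.59 and 0.30 for PCDHGB3, -0.35 and 0.30 for PCDHGB7 and -0.033 and 1.09 for PCDHGC5. In Cl10 they were -0.0555 and 0.0387 for PCDHB10, -0.025 and 0.64 for PCDHGB2, -0.49 and 0.16 for PCDHGB7, -0.23 and 0.26 for PCDHGC4 and -0.20 and 0.92 for PCDHGC5, and for PCDHGC3 they were -0.17 and 0.39. The extremes came from leaving out a control library, except for PCDHB10 and PCDHGC4, where they came from leaving out a Cl10 library. With the neighbours' median subtracted the sign turned for PCDHAC1 (-0.12) and PCDHB14 (-0.028) in Cl1 and PCDHGC3 (-0.11) and PCDHGC4 (-0.18) in Cl10. PCDHAC1 was at -0.039 in Cl1 with library size only, and PCDHB10 at 0.036 in Cl10 with a correction for GC content and length. The causes were not tested.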
